A study of Mus musculus with 8 samples.

Results

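T-box genes encode transcription factors that share a DNA-binding domain, and 9 of them were examined here in mouse embryonic fibroblasts (MEFs) with and without the kinase gene Lats2. The genes were Tbx1, Tbx2, Tbx3, Tbx4, Tbx5, Tbx15, Tbx18, Tbx20 and Tbx22, taken as every gene probe of the array whose gene name in the scanner files is one of these. They are 9 of the 28478 gene and transcript names on the array and have 20 of its 41174 gene probes. In the embryo these factors divide the mesenchyme by position. Tbx5 marks the forelimb and Tbx4 the hindlimb, Tbx2 and Tbx3 act as repressors at the limb margins and in the heart, Tbx15 and Tbx18 are made in trunk and limb mesenchyme, Tbx20 is a cardiac regulator, Tbx1 serves the pharyngeal arches and Tbx22 the palate. Tbx18 is also a marker of the epicardium and the sinus node. MEFs are a mixed culture grown out of an embryo, so a T-box gene can serve as a tag of where in the embryo the cells came from.

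LATS2 is a kinase of the Hippo pathway, which holds back YAP and TAZ, the coactivators of TEAD transcription factors. MEFs of genotype Lats2-/- were set against Lats2+/+ MEFs, both of strain C57BL/6J per the labels, both untreated and in the same medium. Each of 3 litters, numbered 112, 116 and 121, gave 1 RNA extract of either genotype, each from a culture with a clone name of its own, which makes 6 extracts. The age of the embryos, the tissue taken and the passage of the cultures are not given in the sources used here. Each 2-colour array carried the Lats2-/- and the Lats2+/+ extract of 1 litter, with 2 arrays of opposite dyes for litters 112 and 116 and 4 arrays for litter 121. A culture is thus a single line of its genotype and litter, and n is 3 litters in every test.

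On the whole array, an extract had 51.6% to 57.7% of its gene probes well above background, no gene spot was saturated, and 22642 probes were kept for testing. Lats2 itself has 4 probes, and which part of the gene is deleted is not given in the sources used here. The upstream probe was lower in Lats2-/- cells in each litter, by log2 ratios of -1.33 (litter 112), -1.05 (litter 116) and -0.56 (litter 121). The other 3 probes, near the end of the gene, were lower in litters 112 and 116 and higher in litter 121, where their log2 ratios ran from 0.80 to 1.17. Of 12 fibroblast markers, 10 were well above background in all 6 extracts, and the exceptions were Lum, above background in 4, and Pdgfra, above background in 5. Markers of other cell types above background in at least 1 extract were 6 of 8 epithelial, 2 of 7 endothelial, 5 of 8 blood and macrophage, 4 of 8 neural and glial and 1 of 7 skeletal muscle genes. Krt5, Cd14, Lyz2, Tubb3 and Nes were above background in all 6 extracts, while Epcam, Ptprc, Pecam1, Cdh5, Myod1 and Myog were so in none. Among all gene probes 38.4% were above background in no extract, so these counts alone do not show such cells.

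The 9 T-box genes fell into 3 groups by presence. Tbx2, Tbx15 and Tbx18 were well above background in all 6 extracts. Tbx3 and Tbx20 were each above background in 5 extracts, and Tbx1 in 1. Tbx4, Tbx5 and Tbx22 were above background in none, with 2, 2 and 3 probes respectively, and Pitx1, the homeobox gene that sets hindlimb identity, was not above background either. By probes, 8 of the 20 member probes were above background in no extract, beside 38.4% of all gene probes. In all 6 extracts, 6 of the 20 were above it, beside 19449 of the 41174 gene probes. Tbx4 and Tbx5 thus gave no measurable tag of hindlimb or forelimb, which sets only an upper limit on their signal.

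Levels are given as log2 signal, after within-array loess and scaling between arrays. The dimmest probe that counted as well above background lay between 5.87 and 6.15 on this scale, depending on the array and the channel. Signals of different probes cannot be ranked against each other, so each gene is compared with itself across extracts. In cultures, fewer cells that make a transcript and less transcript per cell cannot be told apart.

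**Figure D1:**
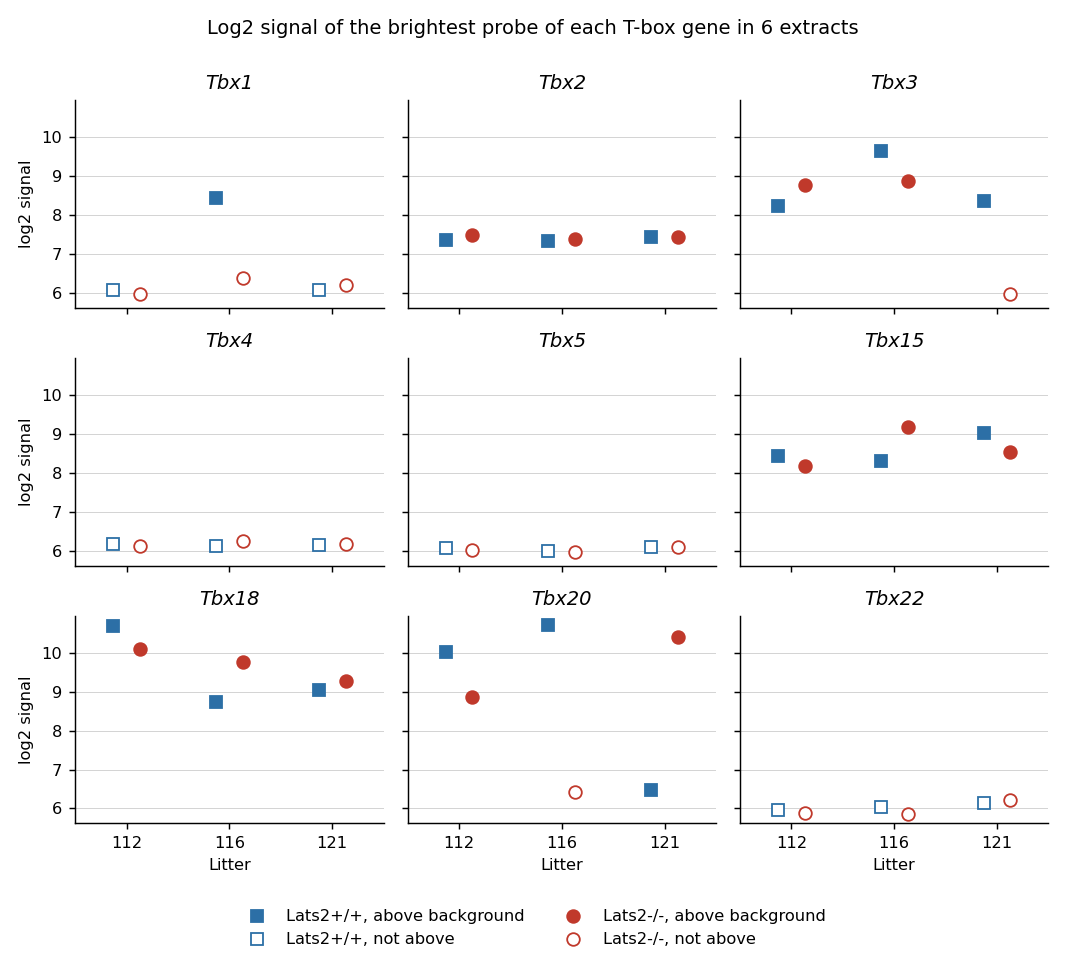
Log2 signal of the brightest probe of each T-box gene (vertical axis) in the Lats2+/+ (squares) and Lats2-/- (circles) extract of litters 112, 116 and 121, filled where the probe was well above background on most arrays of the extract. Tbx20 swings between 6.42 and 10.71 and changes direction between litters, Tbx2 stays between 7.32 and 7.49, and Tbx4, Tbx5 and Tbx22 stay at background.

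For 5 of the 9 genes RefSeq promoters of 300 bases were at hand (GRCm38.p6, from 250 bases before to 50 after the start). The starts of Tbx20, Tbx18, Tbx1 and Tbx22 are printed because these 4 genes span what was measured: a gene that swung widely between cultures, one above background in all of them, one above it in 1 extract and one in none. CG dinucleotides, the sites of DNA methylation, are in capitals. Tbx20 is at chr9:24774254-24774553 and Tbx18 at chr9:87731211-87731510, both on the minus strand. Tbx1 is at chr16:18588850-18589149 on the minus strand, 1 of 2 starts listed, and Tbx22 at chrX:107667714-107668013 on the plus strand, 1 of 3.
Tbx20: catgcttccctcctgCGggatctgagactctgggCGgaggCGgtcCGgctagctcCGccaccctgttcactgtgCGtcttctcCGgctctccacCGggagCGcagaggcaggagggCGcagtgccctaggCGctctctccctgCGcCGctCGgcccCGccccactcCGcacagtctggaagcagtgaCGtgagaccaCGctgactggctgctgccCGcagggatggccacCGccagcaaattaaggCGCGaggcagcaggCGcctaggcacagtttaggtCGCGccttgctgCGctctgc
Tbx18: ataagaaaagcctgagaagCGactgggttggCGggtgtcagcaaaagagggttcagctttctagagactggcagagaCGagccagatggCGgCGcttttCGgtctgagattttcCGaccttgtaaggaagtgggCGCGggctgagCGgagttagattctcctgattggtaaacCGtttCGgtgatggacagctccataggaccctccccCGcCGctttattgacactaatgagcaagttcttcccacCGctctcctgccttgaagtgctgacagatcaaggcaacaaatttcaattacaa
Tbx1: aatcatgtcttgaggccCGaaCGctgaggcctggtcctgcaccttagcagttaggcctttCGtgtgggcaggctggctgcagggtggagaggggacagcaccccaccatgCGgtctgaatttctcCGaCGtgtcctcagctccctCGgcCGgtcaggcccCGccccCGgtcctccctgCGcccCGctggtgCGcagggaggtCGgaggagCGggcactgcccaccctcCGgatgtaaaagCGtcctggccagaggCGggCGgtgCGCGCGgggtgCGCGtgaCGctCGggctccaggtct
Tbx22: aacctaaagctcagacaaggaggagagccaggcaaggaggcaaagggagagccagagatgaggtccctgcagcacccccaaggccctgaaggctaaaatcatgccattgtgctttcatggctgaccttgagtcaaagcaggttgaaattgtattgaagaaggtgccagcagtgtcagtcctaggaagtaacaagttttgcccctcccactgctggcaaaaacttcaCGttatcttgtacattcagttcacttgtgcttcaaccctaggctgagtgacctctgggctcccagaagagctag

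These windows differed in CpG content. The Tbx20 window held 26 CG dinucleotides at a GC content of 68.3%, and its observed over expected CpG ratio was 0.745, above that of 74.6% of the 32851 promoters in the table. Tbx18 held 15, with a ratio of 0.754. The 2 Tbx1 windows had ratios of 0.729 and 0.633. Tbx4, which was not above background, had an intermediate ratio of 0.314. The 3 Tbx22 windows held 1 or 2 CG dinucleotides each and had ratios from 0.0520 to 0.109, against a median over all promoters of 0.384. The letters GGAATG, the core bound by TEAD factors, were found on neither strand in any of the 8 T-box windows, against 14.7% of all promoters. The T-box element AGGTGTGA was also found in none of the 8, against 1.28% of all promoters. No match says only that these letters are not in these windows.

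**Figure D2:**
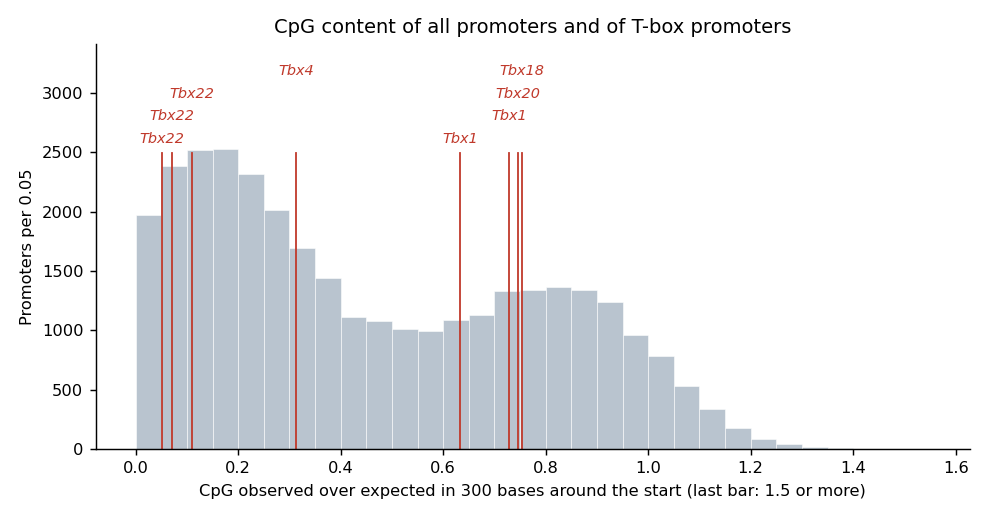
Distribution of the CpG observed over expected ratio (horizontal axis) in the 32851 promoter windows of 300 bases, with the number of promoters per bin on the vertical axis and the 8 windows of 5 T-box genes as lines. The windows of Tbx1, Tbx18 and Tbx20 lie between 0.633 and 0.754, and the 3 Tbx22 windows lie at or under 0.109.

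Tbx20, a cardiac factor that is needed for heart chamber growth, differed more between cultures than any other member. Its brightest probe (A_52_P429876, mm8 chr9:24473713-24473772, minus strand, in the transcript NM_194263) had log2 signals of 10.02, 10.71 and 6.46 in Lats2+/+ cells of litters 112, 116 and 121, and of 8.86, 6.42 and 10.42 in Lats2-/- cells. The highest wild-type culture and the lowest Lats2-/- culture came from the same litter, 116, while litter 121 ran the other way, so the genotypes overlapped. Lats2-/- over Lats2+/+, the log2 ratio took the values -1.16, -4.30 and 3.95 in the 3 litters. That is 2.23-fold and 19.7-fold lower in the first pair of litters and 15.5-fold higher in litter 121. The low extract of litter 116 was above background on 1 of its 2 arrays and the low extract of litter 121 on 3 of its 4, so both folds run down to the edge of detection.

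The arrays of a litter, which repeat the same extracts with the dyes turned, gave values close to each other beside the differences between litters at this probe. The ratio on single arrays ran from -1.38 to -0.93 in litter 112, from -4.33 to -4.26 in litter 116 and from 3.88 to 4.11 in litter 121. The mean over litters was -0.50 ± 4.16 (SD, n = 3), and limma gave an adjusted p = 0.965. It was 1.40 without litter 116 and -2.73 without litter 121. By the SD of its litter ratios this probe ranked 7th of the 22642 kept probes, where the median SD was 0.25 and the 95th percentile 1.10. Since the low extracts of litters 116 and 121 lay at the edge of detection, neither this SD nor the rank is exact. In the order of its 6 signals, the top pair, Lats2+/+ of litter 116 and Lats2-/- of litter 121, overlapped in their array ranges, and so did the bottom pair.

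A second Tbx20 probe, A_51_P427619, from the cDNA AK020409 in the same region of chromosome 9, had log2 ratios of -0.89, -3.28 and 3.17. The Lats2-/- extract of litter 116 did not clear the background there, which puts it at least 9.29-fold lower. The Lats2+/+ extract of litter 121 was above background on 1 of 4 arrays, so the 3.17 also runs to the edge of detection. The remaining 2 probes, A_52_P199191 and A_51_P445173, lie 5' of these and were dim, with log2 ratios of -0.14, -0.17 and 0.36 and of -0.11, -0.37 and 0.39. Both were above background on all 4 arrays of 1 extract, Lats2-/- of litter 121, which was at least 1.23-fold and 1.21-fold higher there. In litters 112 and 116 neither extract was above background on most arrays at these 2 probes, so their ratios there carry no order.

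**Figure D3:**
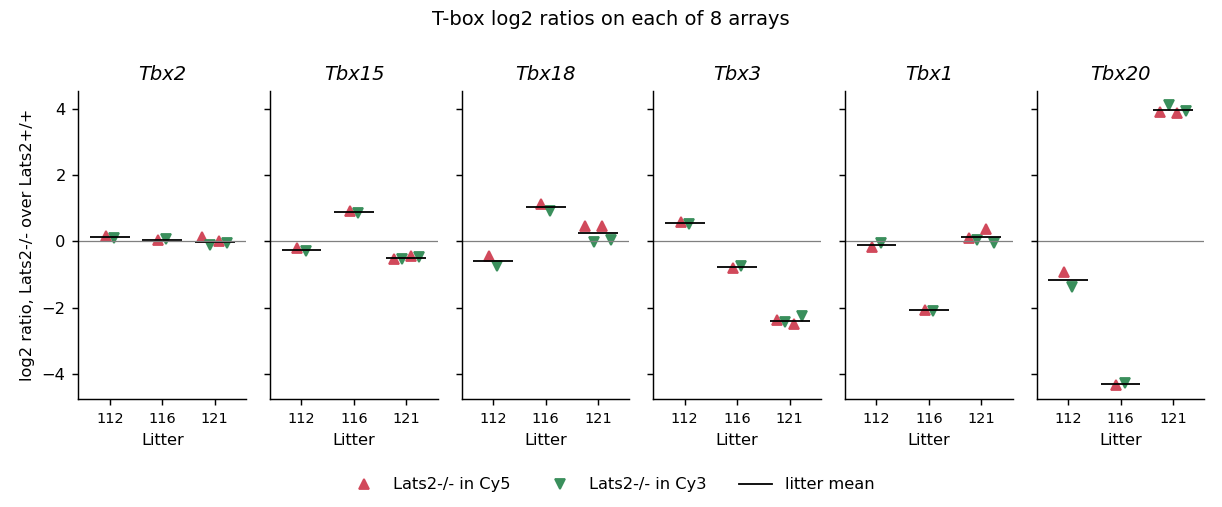
Log2 ratio of Lats2-/- over Lats2+/+ (vertical axis) on each of the 8 arrays for 6 T-box genes, with the litter on the horizontal axis, triangles for the dye of the Lats2-/- extract and a bar for the litter mean. The litters of Tbx20 lie at -1.16, -4.30 and 3.95, while the arrays of Tbx18 in litter 121 run from -0.01 to 0.46 and divide by dye.

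Tbx3, a repressor of limb, mammary and cardiac conduction development, was measured by A_52_P183368 (mm8 chr5:119945081-119945140, plus strand). Its log2 signals were 8.23, 9.65 and 8.36 in the Lats2+/+ extracts and 8.78, 8.88 and 5.97 in the Lats2-/- extracts. The last value, litter 121, was not well above background on any of 4 arrays, while the other 5 extracts were above it on all of theirs. The log2 ratios were 0.55, -0.76 and -2.39, and the Lats2-/- extract of litter 121 was at least 5.02-fold lower than its littermate. The mean was -0.87 ± 1.47 (SD, n = 3; limma, adjusted p = 0.790), and it was -0.11 without litter 121 and -1.58 without litter 112. This mean takes -2.39 at its value, although its low extract was not above background, and it was -2.33 with the processed signals of the scanner software and -2.34 with the deposited value table. A second Tbx3 probe, A_52_P389431 from the cDNA AK031708, was above background in no extract.

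Tbx18, the epicardial and trunk mesenchyme factor, was well above background everywhere. Its brighter probe (A_51_P438711, mm8 chr9:87502625-87502684, minus strand) read 10.69, 8.75 and 9.06 in the Lats2+/+ extracts and 10.11, 9.78 and 9.29 in the Lats2-/- extracts, which lay inside the wild-type range. The log2 ratios were -0.58, 1.03 and 0.24, with a mean of 0.23 ± 0.80 (SD, n = 3; limma, adjusted p = 0.910). In litter 121 the ratio was 0.46 and 0.45 on the arrays with the Lats2-/- extract in Cy5 and -0.01 and 0.05 on those with it in Cy3, and the 0.24 is the mean of 2 arrays in each orientation. On single arrays it ran from -0.73 to -0.43 in litter 112 and from 0.92 to 1.13 in litter 116. The second probe, A_52_P279263, gave -0.54, 0.80 and 0.21, and in litter 121 its arrays ran from 0.03 to 0.37 with the higher pair also in Cy5. Without litter 116 the mean of the brighter probe was -0.17.

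Tbx15, the relative of Tbx18 that shapes the limb skeleton and dorsal skin, varied less. A_52_P232802 (mm8 chr3:99483039-99483098, plus strand) read 8.43, 8.31 and 9.04 in the Lats2+/+ extracts and 8.18, 9.20 and 8.54 in the Lats2-/- extracts. The litters again split, with log2 ratios of -0.25, 0.88 and -0.50. The mean was 0.04 ± 0.74 (SD, n = 3; limma, adjusted p = 0.984), and it was -0.38 without litter 116. All 3 Tbx15 probes had the same sign in each litter, and the dimmest, A_52_P648635, moved least, from -0.13 to 0.15.

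Tbx2, the close relative of Tbx3, was the steadiest member. A_52_P318532 (mm8 chr11:85657187-85657246, plus strand) read 7.37, 7.32 and 7.44 in the Lats2+/+ extracts and 7.49, 7.38 and 7.43 in the Lats2-/- extracts. The array ranges of neighbouring extracts overlapped throughout their order. The mean log2 ratio was 0.06 ± 0.06 (SD, n = 3; limma, adjusted p = 0.921), the smallest spread over litters among the tested members.

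Tbx1, the pharyngeal arch factor of the DiGeorge region, was seen in litter 116 alone. A_51_P218335 (mm8 chr16:18495286-18495345, minus strand) read 8.45 in the Lats2+/+ extract of that litter and at most 6.37 in each of the other 5. The wild-type extract was above background on both arrays and its Lats2-/- littermate on 1 of 2, so the log2 ratio of -2.08 runs to the edge of detection and has no exact size. With 1 extract above background Tbx1 was not kept for the test. The probes of Tbx4, Tbx5 and Tbx22 stayed between 5.86 and 6.25 in the 6 extracts, and those values carry no order. One Tbx22 probe, A_52_P39481, cleared the background on 1 of 4 arrays in either extract of litter 121.

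No member changed in 1 direction by the test. Of the 22642 kept probes, 6.84% had an unadjusted limma p under 0.05 and 0% (0 probes) had a Benjamini-Hochberg adjusted p under 0.05. Among the 5 tested members, Tbx2, Tbx3, Tbx15, Tbx18 and Tbx20, the count was 0 at either threshold, and the methods' t-test also gave 0 members and 0 adjusted calls on the array. Adjusted p-values of the 5 lay between 0.790 and 0.984. A change of at least 2-fold the same way in each litter was found for 0.243% of kept probes and for 0 members. A change of at least 2-fold in both directions, in different litters, was found for 1.83% of kept probes and for 1 member, Tbx20. The median over the 5 tested members of the mean log2 ratio was 0.04, beside 0.01 over 15145 genes with a kept probe. None of the 5 had the same sign in all 3 litters, Tbx2 only through a ratio of -0.0049 in litter 121. With 3 litters, a p that misses the threshold does not show equal levels.

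**Figure D4:**
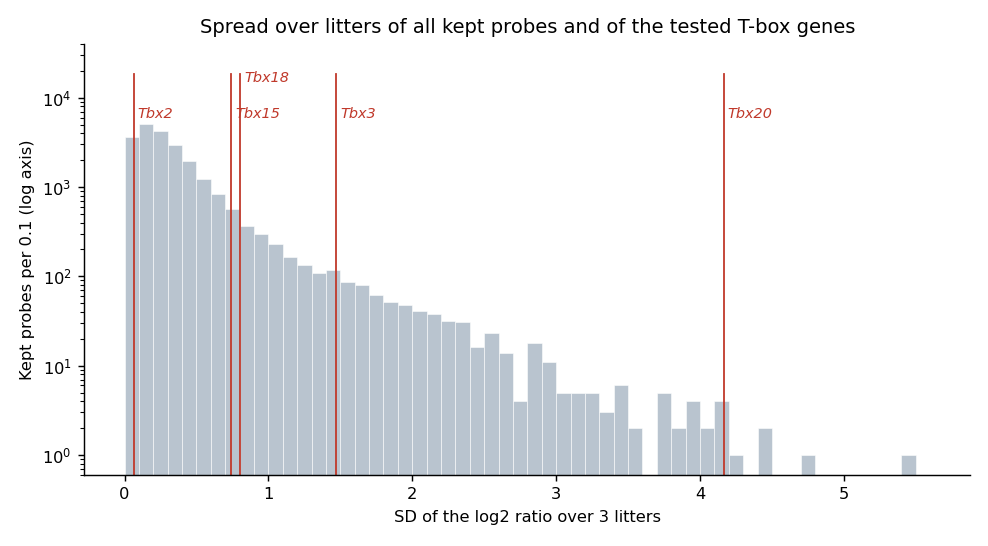
Number of kept probes (vertical log axis) by the SD of the log2 ratio over the 3 litters (horizontal axis), with the 5 tested T-box genes as lines. Tbx2 lies at 0.06 and Tbx20 at 4.16, a value that rests on ratios at the edge of detection.

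Marker lists of other cell types were summed over their genes in each extract, and since signals of different probes are not on 1 scale, a sum follows its brightest probes and says little of the rest. In Lats2-/- cells of litter 121 the summed signal of the 8 neural and glial markers was 12.82 on the log2 scale, against 10.12 to 10.68 in the other extracts, with Nes, the intermediate filament of progenitor cells, at 12.52. The summed blood and macrophage signal was highest in the 2 extracts in which Tbx20 was highest, at 11.98 in Lats2-/- of litter 121, with Lyz2 at 11.76, and at 11.23 in Lats2+/+ of litter 116, with Cd14 at 10.81. Each sum rested on 1 gene, since Cd14 was at its lowest of the 6 extracts in the former (7.08) and Lyz2 at its lowest in the latter (7.17). It was 9.84 to 10.37 in the other 4 extracts, and Ptprc and Adgre1 were not above background in any of the 6. The cardiac and epicardial sum, which follows Actc1, a cardiac actin gene, was also highest in Lats2-/- cells of litter 121, at 15.36 with Actc1 at 15.20 and Tnnt2, the cardiac troponin T gene, at 11.08 against 6.16 to 7.76 elsewhere. In Lats2+/+ cells of litter 116, the other extract with high Tbx20, the cardiac sum was the lowest at 11.44, with Actc1 at 10.34. There the 7 skeletal muscle markers summed to 9.99 against 8.88 to 8.91 elsewhere, with Pax7, a satellite cell factor, at 9.26 and the other 6 not above background. The epithelial and endothelial sums ran from 9.23 to 9.99 and from 8.89 to 9.06, and both were highest in Lats2-/- cells of litter 121. The summed fibroblast signal ran from 17.55, in Lats2+/+ cells of litter 116, to 18.99. Single fibroblast markers differed more between littermates. In litter 121 the log2 ratios of Pdgfra, Thy1 and Col3a1 were -4.96, -3.66 and -3.42, and in litter 116 those of Dcn, Lum and Col3a1 were 6.22, 5.48 and 3.70. The low extract of Pdgfra was above background on 2 of 4 arrays. The part of such cells in the Tbx20 values was not tested. Litter 121 also lay on a slide of its own, so slide and litter cannot be told apart for its ratios.

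The lists of regional genes around the T-box members were described in the same way. Their counts stand beside 6.84% of all kept probes with an unadjusted p under 0.05 and a median of 0.01 over all genes. Of 25 limb mesenchyme genes on the array, 16 were tested and 3 had an unadjusted p under 0.05, all lower in Lats2-/- cells. These were Grem1, a BMP antagonist of the limb bud (-1.70 ± 1.34), Prrx1, a homeobox gene of limb mesenchyme (-0.67 ± 0.14), and Fgf10, the limb bud growth factor (-0.61 ± 0.43). Each had limma adjusted p = 0.711. The median of the 16 was -0.01. Hoxa11, Hoxa13, Hoxd11, Hoxd12, Hoxd13 and Hoxc10, which pattern the middle and end of the limb, were above background in no extract.

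Of 18 cardiac and epicardial genes, 6 were tested and 0 had an unadjusted p under 0.05, with a median of 0.17. Above background in at least 1 extract were 10 of the 18, with Gata6, Actc1 and Hcn4 in all 6 extracts and Nkx2-5, Mef2c and Tnnt2 in 5. Myh7, a heavy chain of cardiac and slow muscle myosin, was above background in both extracts of litter 121 alone and read 9.90 in Lats2-/- cells against 6.84 in Lats2+/+ cells. Myocd, a coactivator of smooth and cardiac muscle genes, was above background in Lats2-/- cells of litter 121 alone. Mef2c, a muscle transcription factor, went the other way, being above background on 0 of 4 arrays in that extract and at least 2.43-fold lower than in its littermate, and the log2 ratio of Nppa, the atrial natriuretic peptide gene, was -0.40 in litter 121. The log2 ratio of Nkx2-5, a cardiac homeobox factor, was -0.09 and -0.11 in the first pair of litters and 0.81 in litter 121. Isl1 was above background in Lats2+/+ cells of litter 112 alone, where it read 7.09, at least 1.68-fold higher than in their littermate. The 8 genes of this list above background in no extract were Gata4, Gata5, Hand1, Myh6, Myl7, Wt1, Tcf21 and Upk3b. Of 15 trunk paraxial mesoderm genes on the array, 6 were tested and 1 had an unadjusted p under 0.05. It was Foxc2, a forkhead factor of somites and mesenchyme, whose log2 ratios were -1.95, -2.23 and -3.29 (mean -2.49 ± 0.71, limma, adjusted p = 0.634). Lats2-/- cells of litter 121 had no Foxc2 signal well above background and were at least 9.72-fold lower than their littermate.

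Among 18 craniofacial and pharyngeal genes on the array, 12 were tested, 2 means were higher and 10 lower, with a median of -0.36, and 4 had an unadjusted p under 0.05. Eya1, a transcriptional coactivator, was higher in each litter (1.37, 1.43 and 1.59, limma, adjusted p = 0.634). Dlx1 (-1.04 ± 0.71), Tfap2a (-0.62 ± 0.21) and Lhx6 (-0.40 ± 0.14), regulators of arch and neural crest mesenchyme, were lower in each litter, each at adjusted p = 0.711 by limma. Of 18 regulators, partners and targets of T-box factors, 16 were tested and 1, Gja1, the connexin 43 gene that TBX2 and TBX3 repress in the heart, had an unadjusted p under 0.05 (-0.92 ± 0.69, adjusted p = 0.711 by limma). Bmp4, the growth factor that induces Tbx2 and Tbx3, had log2 ratios of 2.63, -0.76 and 2.52. The T-box corepressor genes Tle1 to Tle4 had means from 0.14 to 0.60, none past the test.

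**Figure D5:**
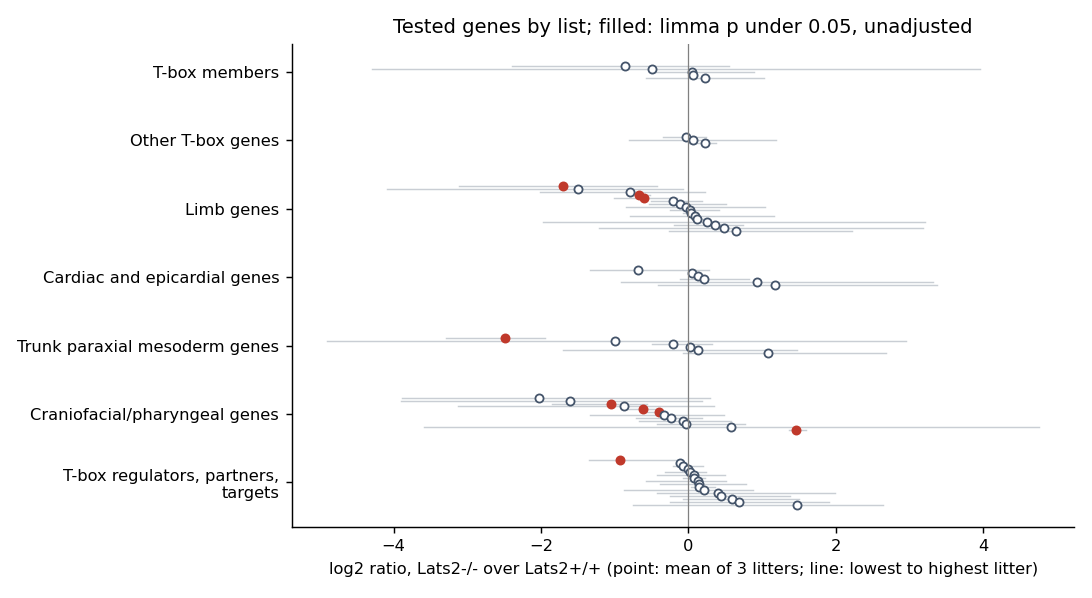
Mean log2 ratio of Lats2-/- over Lats2+/+ (points) and lowest to highest litter (lines) for each tested gene of 7 lists, filled where the unadjusted limma p was under 0.05. The line of Tbx20 runs from -4.30 to 3.95, and no T-box point is filled.

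Of 8 other T-box genes on the array, T, Tbr1, Tbx10, Tbx19 and Tbx21 were above background in no extract. Mga and Tbx6 were above it in all 6, with mean log2 ratios of -0.03 ± 0.29 and 0.22 ± 0.19 (limma, adjusted p = 0.976 and adjusted p = 0.754). Eomes, a factor of early mesoderm and of T cells, was above background in 3 extracts. Its log2 ratio was 1.18 in litter 112, while in litter 116 neither extract was above background. In litter 121 the Lats2-/- extract was above background on 1 of 4 arrays, so the ratio of -0.81 has no exact size. The cell type marker lists gave 1 gene each with an unadjusted limma p under 0.05 in 3 of the 6 cases, beside 6.84% of kept probes. They were Postn (1.34 ± 1.05) of 12 tested fibroblast, Krt19 (1.54 ± 1.05) of 3 epithelial and Cd14 (-0.99 ± 0.57) of 5 blood markers. Each had limma adjusted p = 0.711. The Lats2+/+ extracts of litters 112 and 116 were not above background for Krt19 on most arrays, so its mean has no exact size.

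The genes most like each member across the 6 extracts were found by the root mean square difference of centred log2 signals, over 15144 other genes. The closest to Tbx3 was Akr1c14, a hydroxysteroid dehydrogenase gene, at 0.14, well under the spread of 1.14 of Tbx3 itself. It was followed by Rbpj, the DNA-binding effector of Notch signalling, at 0.25 and by Rnf130 at 0.34. Akr1c14 had log2 ratios of 0.60, -0.54 and -2.11, which its choice by likeness over the same extracts largely fixes. No close match was found for Tbx20, whose nearest genes, Olfm1, Rcan2 and Chd7, a chromatin remodeller, lay at 0.99, 1.03 and 1.04 beside a spread of 1.77. Rcan2, a calcineurin regulator, was higher in Lats2-/- cells in litter 112 (1.64), where Tbx20 was lower. For Tbx18 the nearest were Mlf1, Brms1 and Xylb at 0.24 to 0.26 beside a spread of 0.66. For Tbx15 they were Spsb1, Glg1 and Mgat5, an N-glycan branching enzyme, at 0.09 to 0.13 beside 0.37. Those of Tbx2, Gbx1, Olfr462 and Prlr, lay at about 0.02 beside a spread of 0.05. Since the array ranges of neighbouring Tbx2 extracts overlapped throughout, this likeness cannot be told from noise between arrays.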

How the data were processed

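The authors hybridised 2-colour Agilent arrays of mouse design 14868 and extracted the scans with Agilent Feature Extraction (10.5.1.1 per the labels, 10.7.3.1 in the headers). Their deposited scanner files give intensity values without normalization, flags, and dye-normalized log10 ratios. The authors' value table repeats those log10 ratios, within 0.00500, as Lats2-/- over Lats2+/+, with a median of 0 on each array.

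In R 4.3.3 with limma 3.58.1, mean intensities were corrected for background (normexp, offset 50) and loess-normalized within arrays. The 1639 control spots and 860 outlier gene spots were left out. Repeat spots, then arrays of a litter, were averaged to 1 log2 ratio per litter. Probes above background in at least 2 of 3 extracts of either genotype were kept, an extract being above it where most of its arrays were. Ratios were tested against 0 with lmFit and eBayes (two-sided, Benjamini-Hochberg over 22642 probes). Signals were taken after Aquantile. A bound ("at least N-fold") sets the brighter extract against the dimmest detected signal or, if higher, the dim probe's own. Signals above that dimmest one could also miss the background flag, such as 6.74 for Tbx20 on 1 array of litter 116. A bound is therefore approximate and not a strict lower limit. Extracts are paired by litter in the labels, and same-litter deviations correlated at 0.46, 0.30 and 0.47 over kept probes.

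Genes are represented by their brightest probe. Named genes were all members, detected other T-box genes, the 3 nearest profiles of each measured member, and up to 4 genes per list at an unadjusted p under 0.05. Others were picked after their values were seen. The members and lists were chosen with earlier results of these data known, and no list was tested as a set. The fit was tested on simulated data, whose settings and outcome are not given here. With 8 arrays and 3 litters, precision is limited. The alternatives tried are given with the limits.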

Additional observations from a re-analysis of the deposited data

How the results depend on the processing

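No T-box member passed an unadjusted p of 0.05 under 13 of 15 alternatives, among them each litter left out. With the 8 arrays fitted and litter or slide as a random block, 1 member passed, Tbx3, at mean log2 ratios of -0.88 and -1.25. These fits count arrays of the same extracts, and they raised the array's calls at an unadjusted p from 1549 to 2998 and 4030 and at an adjusted p from 0 to 341 and 717. With slide as the block the mean was -0.092 for Tbx15 and 0.61 for Tbx20, both of reversed sign.

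Leaving out 1 litter at a time moved the members as follows. Tbx20 ran from -2.73 (without litter 121) to 1.40 (without litter 116), Tbx15 from -0.38 to 0.32, Tbx18 from -0.17 to 0.63 and Tbx3 from -1.58 to -0.11. The lowest values of Tbx15 and Tbx18 and the highest of Tbx20, all without litter 116, reversed the sign. The median over tested members ran from -0.17 to 0.088. It was -0.23 once probes above background in at least 1 extract were kept, an alternative chosen after seeing the data that brings in Tbx1.

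The authors' processed signals and the deposited table gave -2.33 and -2.34 for Tbx3, whose low extract is not above background. Tbx3 and Tbx20 have no value under the filter that needs all 6 extracts.

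Of the 84 other listed genes tested, 12 passed an unadjusted p of 0.05, and 6 by the methods' t-test, 23 and 22 with the litter and slide blocks, 4 without the pairing (no replicate block), and from 8 to 14 when 1 litter was dropped. Without the pairing 554 probes passed on the array, and 2623 with no filter. The unpaired fit changed no call of a member. Depth cannot be given for arrays, and a probe not above background has only an upper limit.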

Other observations

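A few listed genes, picked after their values were seen, also had ratios far apart between litters. Scx, the tendon factor, moved by -1.03, -4.90 and 2.95 (log2 ratios of litters 112, 116 and 121). Lhx8, of the first pharyngeal arch, was above background in both extracts of litter 112 alone and 3.05 higher on the log2 scale in Lats2-/- cells. Meox1, of the somites, was detected in Lats2-/- cells of litters 112 and 116 and in no wild-type extract, at least 6.43-fold higher in litter 116. Alx4, a limb and skull homeobox gene, had -0.08, -0.33 and -4.09.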
